A study of Mus musculus with 6 samples.

Results

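The interferon-stimulated antiviral genes described here are 35 named mouse genes. They and the other gene lists were chosen with earlier results of these data known. Their shares set beside all genes therefore describe the lists and are no independent test. Of the 35 genes, 33 had at least 1 probe set annotated to them alone, 57 probe sets in all, and each gene is given by its brightest probe set. All 33 lay above the intensity threshold that left 13042 genes in the comparison. Isg15 was covered only by a probe set shared with another gene, and Ifi44 had no probe set under its symbol, so neither has a value.

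The study asked what happens in the mouse small intestine when Fitm2, which encodes the endoplasmic reticulum protein FIT2 needed for lipid droplets, is deleted by way of tamoxifen. The controls carry the label L/L, which the labels leave unexplained. The mice called KO were ROSA26CreERT2 L/L, which have the same alleles plus a tamoxifen-activated Cre recombinase expressed from the Rosa26 locus, a locus active in most cell types. All groups shared the same tamoxifen protocol, 100 µg per g body weight into the peritoneum on days 1, 2 and 3. The whole flushed intestine was taken on day 2, 3 or 5, and it is not stated which doses animals killed on day 2 or 3 had received; ages and sexes are likewise not given in the labels. RNA was pooled from 6 L/L and 7 KO mice on day 2, from 6 and 6 on day 3, and from 8 and 7 on day 5, and each pool was read on 1 Affymetrix expression array.

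Each genotype thus has 1 array per day and 6 arrays make up the series, a number that limits precision throughout. A difference on a single day has no replicate and no test. The test over the 3 days (limma, day as a factor) sees only how far the genotype difference varied from day to day, not the spread between mice. Mice with Cre but without the L/L alleles were not analysed here, so the presence or activity of Cre and the loss of Fitm2 cannot be told apart.

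Type I and type III interferons bind receptors that act through JAK kinases. A transcription factor complex that contains STAT2 and IRF9 then binds interferon-stimulated response elements in the promoters of many genes. Their products sense viral nucleic acid, block translation or degrade RNA, trap virions at membranes, or adjust the response itself. In the intestine the epithelium answers chiefly to type III interferon, and a low level of such transcripts is known to be maintained in uninfected animals by the microbiota.

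The response element is the one sequence feature that the members are widely known for, so their promoters were searched for it. RefSeq windows on GRCm38.p6, from 250 bases before to 50 after the annotated start, were at hand for 27 of the 35 genes. The core, which reads GAAA, any 2 bases and GAAA again, on either strand, was found in 13 of these 27 genes (48.1%), against 1079 of 27025 genes (3.99%) and 1131 of 32851 windows (3.44%) overall. It was also present in 19 of 43 interferon-stimulated genes outside the 35 (44.2%). The genes were Ddx58, Ifih1, Ddx60, Eif2ak2, Oas1a, Oas3, Ifit1, Ifit3, Rsad2, Bst2, Trim30a, Isg15 and Stat2, and 6 of them held at least 2 cores in 1 window. No window was at hand for Dhx58, Zbp1, Oas2, Mx2, Usp18, Parp9, Parp14 and Rtp4.

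Stretches around the cores are shown for 6 genes whose array values are given further on, to let the spacing and the repeats be seen. Each runs 5′ to 3′ on the gene's strand, with 12 bases on either side where the start site allows, and capitals mark the core. Capitals that begin with TTTC are cores on the other strand, and in Oas1a and Bst2 a pair of cores overlaps.
Ifit1, chr19:34640773-34640825, plus strand: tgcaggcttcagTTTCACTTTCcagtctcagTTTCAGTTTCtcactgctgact
Ifit3, chr19:34583361-34583428, plus strand: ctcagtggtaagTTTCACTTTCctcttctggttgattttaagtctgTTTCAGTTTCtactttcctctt
Rsad2, chr12:26456551-26456584, minus strand: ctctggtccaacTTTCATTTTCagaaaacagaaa
Oas1a, chr5:120907526-120907557, minus strand: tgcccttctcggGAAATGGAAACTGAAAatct
Bst2, chr8:71537575-71537614, minus strand: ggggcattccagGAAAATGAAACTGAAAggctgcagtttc
Stat2, chr10:128270264-128270297, plus strand: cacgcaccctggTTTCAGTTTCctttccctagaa

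All 6 stretches lie upstream of the annotated start. In Ifit1 the cores begin at bases -104 and -85, in Ifit3 at -156 and -122. In Oas1a they lie closest to the start among these genes, beginning at -20 and -14. The gamma-activated site TTCNNNGAA, a palindromic motif of the interferon gamma response searched on both strands, was found in 5 of the 27 genes (18.5%: Oas1a, Bst2, Ifi35, Eif2ak2 and Ifit2), against 2582 of all genes (9.55%) and 8.3% of all windows. It matched 2 of the 43 other interferon-stimulated genes (4.65%). In Bst2 the site overlapped the first core by several bases. A match describes letters in these windows, not binding.

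**Figure D1:**
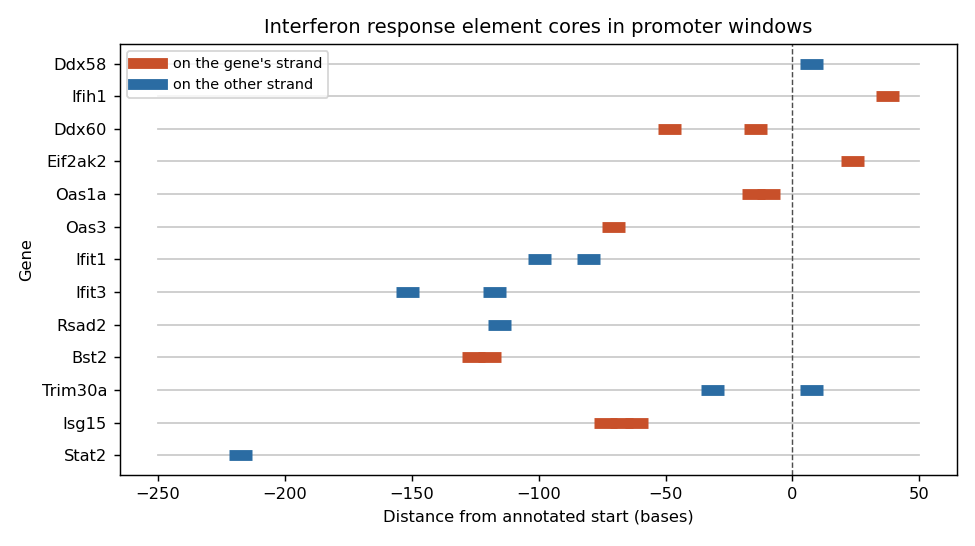
Positions of the response element core in the promoter windows of the 13 members that hold one, in bases from the annotated start (x axis), with a bar for each match coloured by strand. In 9 of the 13 genes every match lies upstream of the start; the cores of Ddx58, Ifih1 and Eif2ak2 and 1 core of Trim30a lie after it.

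As a check of the labels, Fitm2 itself had a mean log2 difference of -0.76 between KO and L/L (-0.65, -0.82 and -0.82 by day), which did not pass limma over all genes (adjusted p = 0.125). Esr1, whose human counterpart supplies the hormone-binding part of CreERT2, was 7.85-fold higher (limma, adjusted p = 0.0113). The enterocyte markers Vil1 and Epcam were among the bright probe sets on all 6 arrays, between 13123 and 16281. Median intensity was close between arrays, from 57.8 to 59.8.

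The antiviral genes were higher in KO than in L/L as a group, from the first day sampled. Of the 33 genes, 32 were higher in KO on all 3 days, whereas 22.1% of all 13042 genes were. Dtx3l was the exception, with a difference of 0.00 on day 5 on its brightest probe set and 0.12 on its other one. With the mean of all probe sets, and with cyclic loess, all 33 were higher on all 3 days. By day, the median log2 difference was 0.53, 0.53 and 0.64, against 0.01, -0.01 and 0.02 over all genes. In bulk tissue, a higher level per cell and a larger share of cells that hold the transcript cannot be told apart.

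In the limma test over the 3 days, 1 of the 33 genes passed after adjustment over all genes, Ifit1; this is to be set beside 3 genes higher among 13042 (0.023%). At an unadjusted p under 0.05, 32 of the 33 were higher, again all but Dtx3l, where 7.68% of all genes were. Adjusted p for the other 32 lay between 0.102 and 0.438. The mean difference ranged from 0.19 for Dtx3l to 1.24 for Usp18, with a median of 0.62. It reached 2-fold in Usp18, Ifit1, Ifit3 and Rsad2, which are 4 of the 20 genes in the whole table with such a mean.

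**Figure D2:**
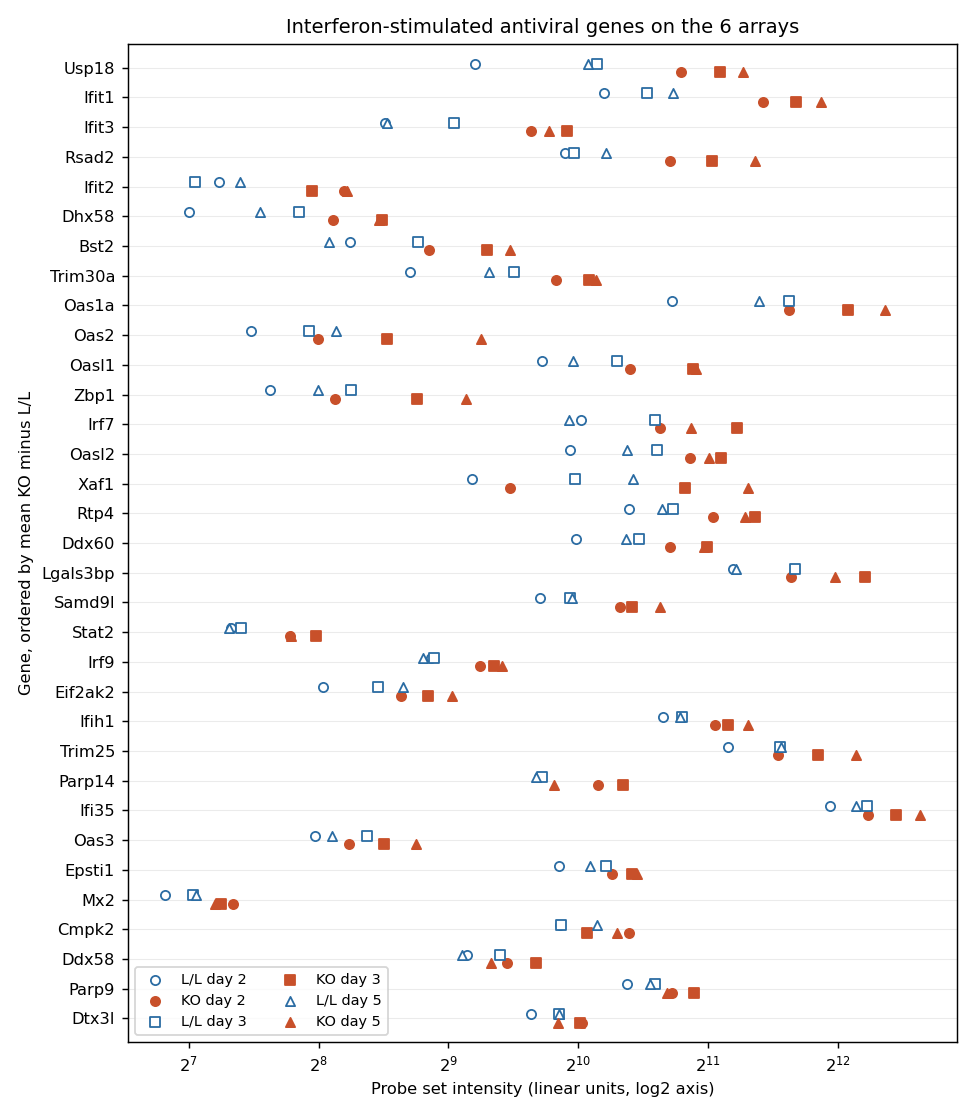
Intensity of the brightest probe set of each of the 33 genes (y axis) on the 6 arrays, in linear units on a log2 axis, with open symbols for L/L and filled symbols for KO and a shape for each day. In 22 of the 33 genes all 3 filled symbols lie to the right of all 3 open ones, most widely in Ifit1, where L/L ends at 1704 and KO begins at 2743.

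The IFIT proteins bind viral RNA and hold back its translation, and as a family they stood furthest apart. On days 2, 3 and 5, Ifit1 measured 1178, 1476 and 1704 on the L/L arrays and 2743, 3276 and 3739 on the KO arrays, an order of days kept for all genes below. Both genotypes were highest on day 5 and the KO arrays were all well above the L/L arrays. The difference was nearly the same on each day, 1.22, 1.15 and 1.13 on the log2 scale, and Ifit1 rose 2.25-fold (mean log2 1.17 ± 0.05 SD over 3 days, SE 0.06; limma adjusted p = 0.0285). The call was lost in limma without day 2 (1.14, adjusted p = 0.0739), without day 3 (1.18, adjusted p = 0.753) and without day 5 (1.19, adjusted p = 0.0504), so it needed all 3 days.

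Ifit3 read 365, 528 and 369 on the L/L arrays and 795, 965 and 878 on the KO arrays. Its L/L and KO arrays both peaked on day 3 and did not overlap, at a mean log2 difference of 1.08 ± 0.19 SD (limma adjusted p = 0.125). Ifit3 has a near-identical copy, Ifit3b, whose transcripts the probe set may not separate. Ifit2 was 150, 132 and 168 on the L/L arrays and 293, 247 and 298 on the KO arrays, also without overlap, and was the next member after Ifit1 in the test (mean 0.90 ± 0.07 SD; limma adjusted p = 0.102).

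Among nucleic acid sensors, Ddx58 encodes RIG-I and Ifih1 encodes MDA5, which detect viral RNA and signal through MAVS. Ddx58 was among the smallest differences: 566, 675 and 551 on the L/L arrays against 701, 818 and 643 on the KO arrays. KO was higher on each day, yet KO on day 5 lay below L/L on day 3, so the groups overlapped (mean 0.27 ± 0.04 SD; limma adjusted p = 0.381). Ifih1 was 1607, 1779 and 1762 on the L/L arrays and 2122, 2278 and 2538 on the KO arrays, with no overlap (mean 0.43).

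Dhx58, which encodes LGP2, a relative of RIG-I that lacks its signalling domains, showed the largest mean difference of the sensors by the brightest probe set. It read 128, 231 and 187 on the L/L arrays and 276, 359 and 354 on the KO arrays, a mean of 0.89 ± 0.24 SD (limma adjusted p = 0.242). Its other probe set above the intensity threshold had a mean of 0.66, and the probe set below it 0.07. With the mean of all probe sets, the dim probe set included, Dhx58 stood at 0.54, below Ddx60 and Zbp1 at 0.60 each. Ddx60, a helicase linked to RIG-I signalling, had a mean of 0.62, and Zbp1, a sensor of Z-form nucleic acid that can trigger cell death, 0.72. On the brightest probe set Zbp1 went from 0.50 on day 2 to 1.14 on day 5. The other Zbp1 probe set gave 0.24, 0.59 and 0.61 by day. Eif2ak2, the kinase PKR that halts translation on double-stranded RNA, had a mean of 0.45, smaller than the spread of its own L/L arrays (0.62). The 6 genes of this group had a median of 0.55, 0.45 and 0.56 by day.

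The OAS enzymes make the second messenger 2-5A, which activates RNase L. Oas1a was 1690, 3164 and 2692 on the L/L arrays and 3152, 4326 and 5286 on the KO arrays. L/L on day 3 exceeded KO on day 2, so the groups touched, and the L/L arrays spanned 0.91 on the log2 scale against a mean genotype difference of 0.77 ± 0.28 SD (limma adjusted p = 0.331). A close copy, Oas1g, has no probe set of its own here, and its part in that signal was not tested.

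Oas2 was 178, 243 and 281 on the L/L arrays and 255, 369 and 611 on the KO arrays, with differences of 0.52, 0.60 and 1.12 by day. It was low on day 2 and high on day 5 in both genotypes, and KO on day 2 fell below L/L on day 5. Oasl1 and Oasl2 did not overlap between genotypes and had means of 0.74 and 0.68. Oas3 had the smallest difference of the 5, with a mean of 0.34 and a day 3 value of 0.13; without day 5 the mean was 0.19.

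The direct effectors were similarly spread. Rsad2 encodes viperin, an enzyme that makes a chain-terminating nucleotide and sits on the endoplasmic reticulum and lipid droplets. Its intensities were 954, 1001 and 1186 on the L/L arrays and 1671, 2095 and 2638 on the KO arrays. No arrays overlapped, and the differences of 0.81, 1.07 and 1.15 gave a mean of 1.01 ± 0.18 SD (limma adjusted p = 0.125). Cmpk2, the gene next to Rsad2 that supplies its nucleotide substrate, was 930, 934 and 1132 on the L/L arrays and 1342, 1071 and 1258 on the KO arrays. On this brightest probe set the Cmpk2 difference was 0.53 on day 2 but only 0.20 and 0.15 afterwards, and the groups overlapped. Without day 2 the mean went from 0.29 to 0.18. The other Cmpk2 probe set gave 0.43, 0.46 and 0.19 by day, also with overlap.

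Bst2 encodes tetherin, which holds budding virions at the cell surface. It was 302, 436 and 270 on the L/L arrays and 461, 629 and 712 on the KO arrays. KO was above L/L on every array, most on day 5, when L/L was at its lowest and the difference was 1.40, the largest of any member on that day. Trim30a, a ubiquitin ligase of the TRIM family, had the reverse order in time, 1.13 on day 2 against 0.58 and 0.83 later. Samd9l, a translation inhibitor, had a mean of 0.59. Mx2, one of the Mx dynamin-like GTPases, had a mean of 0.30, with 0.52 on day 2 and 0.15 on day 5, and of 0.18 without day 2.

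Usp18 removes ISG15 from proteins and also restrains signalling at the interferon receptor. It had the largest mean difference of all members, with 589, 1134 and 1081 on the L/L arrays and 1770, 2179 and 2472 on the KO arrays. All KO arrays were above all L/L arrays. The L/L array of day 2 was the lowest by a wide margin, and the difference was largest on that day, at 1.59, against 0.94 and 1.19 (mean 1.24 ± 0.32 SD; limma adjusted p = 0.24). Trim25, a ligase that conjugates ubiquitin and ISG15 and acts on RIG-I, had a mean of 0.42.

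Of the 3 transcription factors, Stat2 and Irf9 encode parts of the complex that binds the response element and Irf7 drives the later wave of interferon alpha genes. Stat2 was 160, 169 and 159 on the L/L arrays and 220, 252 and 221 on the KO arrays. Irf9 was 467, 473 and 446 on the L/L arrays and 606, 652 and 683 on the KO arrays. On the brightest probe sets these were among the flattest controls of the list, with L/L arrays spanning 0.09 on the log2 scale in both genes. The mean differences were 0.50 ± 0.07 SD and 0.48 ± 0.12 SD (limma adjusted p = 0.259 and 0.331). On the other Stat2 probe set L/L shifted by -0.28 from day 2 to day 5, and the mean genotype difference was 0.56.

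Irf7 varied more: 1041, 1547 and 975 on the L/L arrays and 1582, 2395 and 1867 on the KO arrays. Day 3 was the highest in both genotypes. KO on day 2 was only just above L/L on day 3, and the mean difference was 0.72 ± 0.18 SD (limma adjusted p = 0.242).

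Parp9 and Dtx3l form a complex of an ADP-ribosyltransferase and a ubiquitin ligase and share a bidirectional promoter; Parp14 is another member of the PARP family. They were the only role group with a falling median, 0.40, 0.30 and 0.13 by day. Parp9 was 1330, 1545 and 1500 on the L/L arrays and 1691, 1901 and 1645 on the KO arrays. Dtx3l was 794, 923 and 924 on the L/L arrays and 1045, 1036 and 921 on the KO arrays. On this brightest probe set no difference was left on day 5, and the mean was 0.08 without day 2. The other Dtx3l probe set gave 0.38, 0.17 and 0.12 by day. The means of Parp9 and Dtx3l, 0.26 and 0.19 on the brightest probe sets, were the lowest of the 33 genes (limma adjusted p = 0.381 and 0.438). Parp14 was highest in KO on day 3, at 1301, and stood at 0.14 above L/L on day 5.

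Among the remaining members, Rtp4, a chaperone of membrane receptors, had the steadiest difference on the brightest probe set. It was 1343, 1696 and 1605 on the L/L arrays and 2102, 2634 and 2495 on the KO arrays. The genotypes kept the same distance on each day, 0.65, 0.64 and 0.64 on the log2 scale (mean 0.64 ± 0.01 SD; limma adjusted p = 0.125). Its adjusted p nevertheless missed the threshold. The other Rtp4 probe set gave smaller and less even differences, 0.31, 0.43 and 0.44 by day.

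Xaf1, a pro-apoptotic protein that opposes XIAP, was 580, 1006 and 1369 on the L/L arrays and 711, 1811 and 2531 on the KO arrays. It was higher on each later day in both genotypes, by 1.24 in L/L from day 2 to day 5 against a mean genotype difference of 0.68. Lgals3bp, a secreted galectin-binding glycoprotein, had a mean of 0.59, and Epsti1 0.33. Ifi35, a partner of NMI, was 3934, 4794 and 4509 on the L/L arrays and 4826, 5597 and 6348 on the KO arrays. The groups came close, KO on day 2 against L/L on day 3, but did not overlap (mean 0.34 ± 0.14 SD; limma adjusted p = 0.381).

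The control arrays also differed among themselves, which gives a scale for the genotype difference. From day 2 to day 3 in L/L, 32 of the 33 genes were higher, with a median of 0.40 against 0.03 for all genes; Ifit2 was the exception at -0.18. From day 3 to day 5 the median was -0.09 against -0.03 for all genes, with 22 genes lower and 11 higher. From day 2 to day 5 it was 0.24 against -0.01. The share of all genes that moved each way was not counted. The same shifts between KO arrays had medians of 0.26, 0.07 and 0.31. The L/L arrays are part of both the genotype differences and these shifts, so a low L/L array on day 2 enters both.

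Counted at 1.5-fold, 16 of the 33 genes were higher in KO than in L/L on day 2, 12 on day 3 and 21 on day 5. Over all genes the shares were 0.429%, 1.1% and 5.19%. Between L/L arrays, 7 members were at least 1.5-fold higher on day 3 than on day 2 (Dhx58, Zbp1, Oas1a, Oasl2, Trim30a, Usp18 and Xaf1) against 0.882% of all genes. None was between days 3 and 5 (0.552% of all genes), where Bst2 and Irf7 were lower by as much, and 6 were on day 5 against day 2 (1.15%). Between KO arrays the counts were 3 (0.675%), 1 (2.95%) and 7 (4.63%) for the same pairs. Counts between genotypes on each day thus exceeded those between any pair of days within a genotype.

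**Figure D3:**
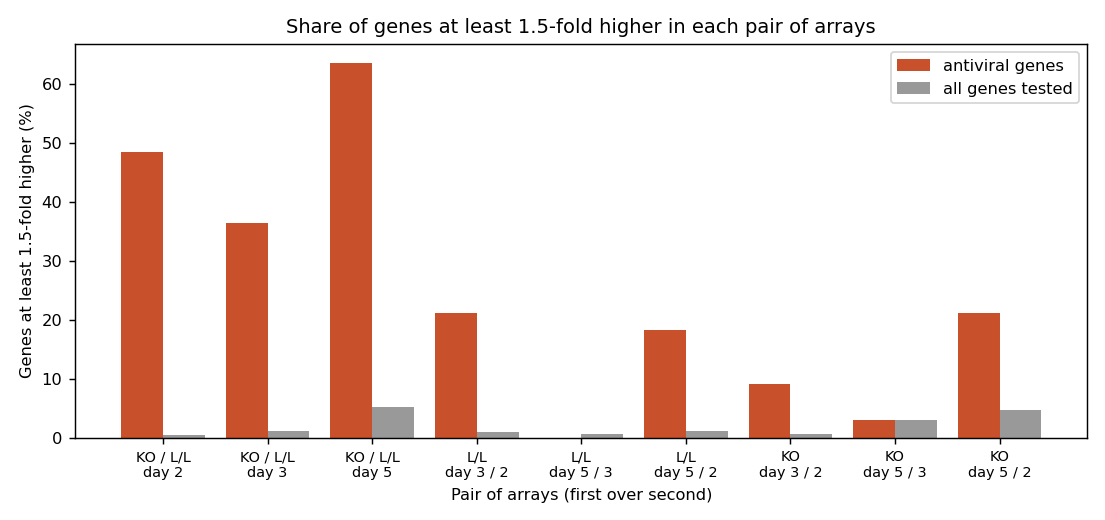
Share of genes at least 1.5-fold higher in the first array of each pair than in the second, in percent, for the 33 antiviral genes and for all 13042 genes. The bars for KO over L/L reach 48.5%, 36.4% and 63.6% of the antiviral genes on days 2, 3 and 5, and those between days of 1 genotype reach at most 21.2%.

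At 2-fold, the members were Dhx58, Ifit1, Ifit3, Trim30a and Usp18 on day 2, which made 5 of 12 such genes in the table (0.092% of all). On day 3 they were Ifit1 and Rsad2, 2 of 24 (0.184%). On day 5 they were Zbp1, Oas2, Ifit1, Ifit3, Rsad2, Bst2 and Usp18, 7 of 167 (1.28%). Many more genes outside the list therefore passed 2-fold on day 5 than on day 2, while the members' median differed by 0.11 between those days.

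All 3 KO arrays lay above all 3 L/L arrays in 22 of the 33 genes (66.7%), against 7.48% of all genes. The 11 that overlapped on the brightest probe set were Ddx58, Zbp1, Eif2ak2, Oas1a, Oas2, Oas3, Cmpk2, Trim25, Dtx3l, Xaf1 and Lgals3bp. In Ddx58, Zbp1, Eif2ak2, Trim25, Dtx3l and Xaf1, at least 1 other probe set above the threshold did not overlap. In Ddx60, Dhx58 and Parp14 another one did. The count was 27 with the mean of all probe sets, 25 with cyclic loess and 20 with median centring. The mean genotype difference exceeded the whole span of the L/L arrays in 26 genes (78.8%), against 11.3% of all genes. The 7 where it did not were Ddx58, Eif2ak2, Oas1a, Oas3, Dtx3l, Xaf1 and Epsti1.

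**Figure D4:**
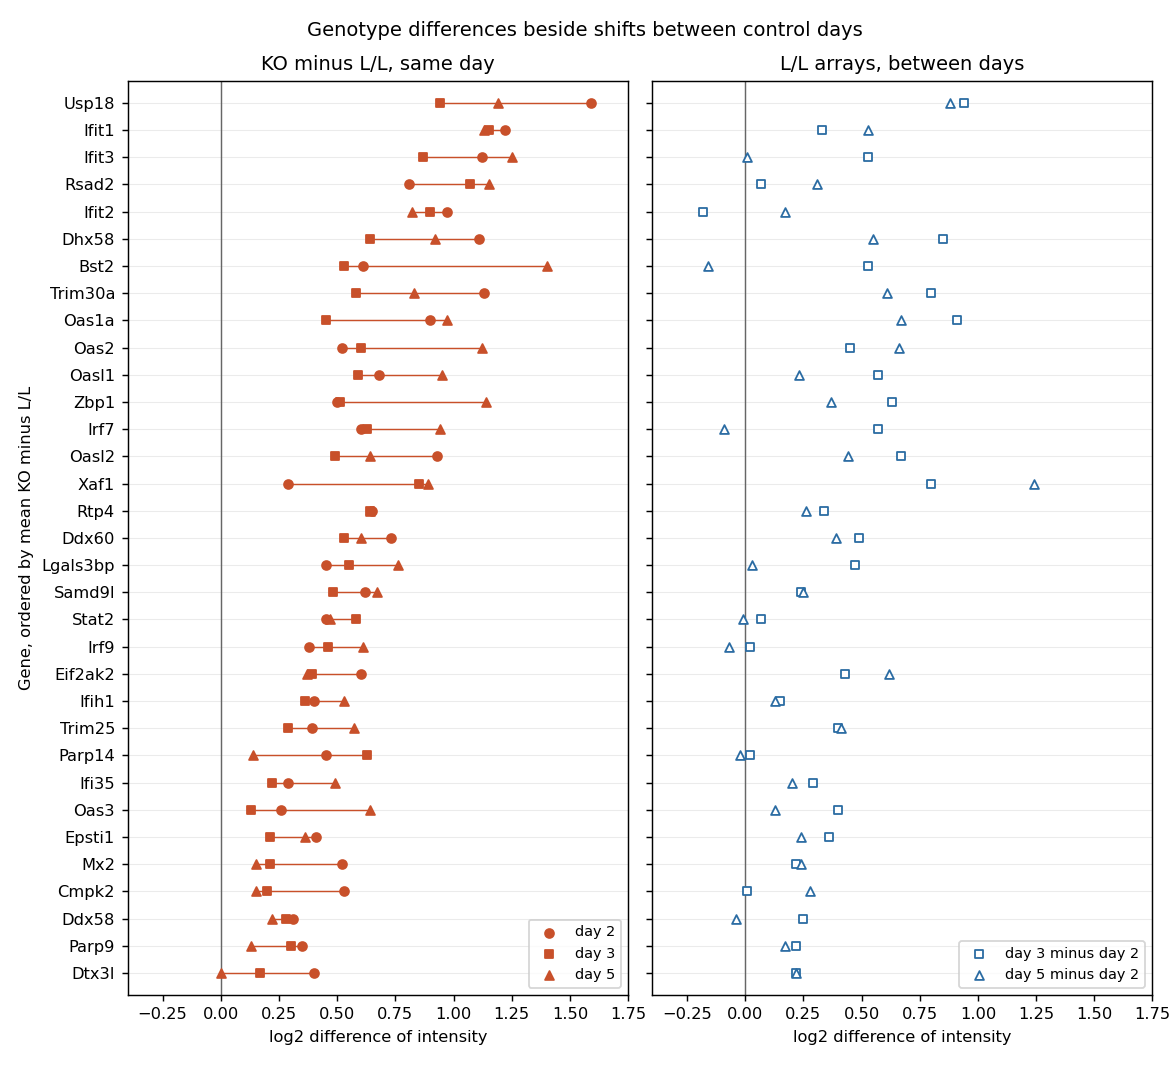
Log2 difference between KO and L/L on the same day (left, filled symbols joined by a line for each gene) beside the log2 shifts between L/L days (right, open symbols) for the 33 genes in order of mean difference. The genotype differences lie between 0.00 and 1.59, and the L/L shifts from day 2 between -0.18 and 1.24, with Xaf1, Oas1a and Usp18 high on the right.

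No common direction in time was seen in the genotype difference. It was largest on day 2 in 15 genes, on day 3 in 2 and on day 5 in 16. The same split over all genes was not counted, so these counts only describe the members. Tested as a slope on day in limma, 0 of the 33 passed after adjustment, where 1.23% of all genes did. At an unadjusted p under 0.05 there were 4 members, a smaller share than the 2404 of all genes (18.4%). The lowest adjusted p was that of Oas2 (slope 0.21 per day, limma adjusted p = 0.117), followed by Bst2 (0.29, adjusted p = 0.123) and Zbp1 (0.23, adjusted p = 0.125).

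Other probe sets gave the same genotype direction but not the same time course. Of 24 further probe sets of the members, 22 lay above the intensity threshold, from 16 genes, and all 22 were higher in KO on all 3 days. Their mean difference departed from that of the brightest by a median of 0.09 and at most 0.33, in Rsad2, whose other probe sets gave 1.15 and 1.34. The other 2, of Dhx58 and Epsti1, were below the threshold and differed by 0.07 and 0.01.

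For the L/L shift from day 2 to day 5, by contrast, 14 of the 22 had the sign of the brightest probe set, and their median was 0.03 against 0.30 for their brightest partners. Xaf1 was the extreme: 1.24 on the brightest and -0.27 on the other, with genotype differences of 0.68 and 0.57. Eif2ak2 showed the same, 0.62 on the brightest against -0.47 and -0.17, with genotype differences of 0.45, 0.41 and 0.50. For the L/L shift from day 2 to day 3, 18 of the 22 had the sign of the brightest probe set. Their median was 0.14 against 0.35 for their brightest partners. From day 3 to day 5, 9 of the 22 had that sign. The size of shifts between days, and for single members their sign, thus depends on the probe set read.

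Upstream of these genes, the array gave little. Of 19 interferon genes written, 10 had a probe set of their own and 8 of these were below the threshold, Ifnb1 (27 to 33.5) and Ifng (6.93 to 9.29) among them. Type III interferon genes had no probe set of their own. The remaining interferon genes, Ifna1 and Ifnz, differed by -0.02 and 0.28. Dim probe sets give no bound on a small source of interferon.

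Receptor subunits had medians of 0.03, 0.03 and 0.07 over 6 genes. Ifnar2, a subunit of the type I receptor, stood at 0.34, mostly from day 5 (0.85), and 0 of the 6 passed in limma (0 at an unadjusted p under 0.05). Signal transducers had medians of 0.01, -0.07 and 0.10 over 9 genes, with Irf5 at 0.19 and Stat3 and Irf8 at 0.13 and -0.13. Of these 0 passed in limma (0 at an unadjusted p under 0.05).

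Inhibitors of the response had medians of 0.04, 0.00 and 0.18 over 10 genes. The RNA editor Adar (0.30), the nucleotide hydrolase Samhd1 (0.20) and the JAK inhibitor Socs1 (0.19) were highest, and Socs3 was at -0.15; 0 passed in limma (3 at an unadjusted p under 0.05). Sensing adaptors had medians of 0.06, 0.04 and 0.16 over 11 genes, 0 passing in limma. At an unadjusted p under 0.05, in either direction, there were 5, beside 1603 of all 13042 genes. The endosomal and surface sensors Tlr7 (0.29) and Tlr4 (0.31) and the adaptor Myd88 (0.28) were higher, whereas Mavs, the adaptor of RIG-I and MDA5, was lower on each day (-0.20, -0.34 and -0.44; limma adjusted p = 0.381). Ticam1, the adaptor of TLR3, was lower as well (-0.09, -0.18 and -0.33; limma adjusted p = 0.398).

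A further list of 53 interferon-stimulated genes outside the 35 served as a wider look at the response, and 44 of them were measured. Their medians were 0.29, 0.31 and 0.38, below those of the members on each day. Of the 44, 40 were higher on all 3 days, against 22.1% of all genes, and in 25 all KO arrays lay above all L/L arrays, against 7.48%. In limma 0 passed after adjustment, and 35 had an unadjusted p under 0.05, beside 1603 of all 13042 genes. The chemokine Cxcl10 (0.86), the ligase Herc6 (0.79), Ifi27l2a (0.70), the DNA-binding Mndal (0.68), Ly6e (0.65) and the membrane protein Ifitm3 (0.65) had the largest means.

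**Figure D5:**
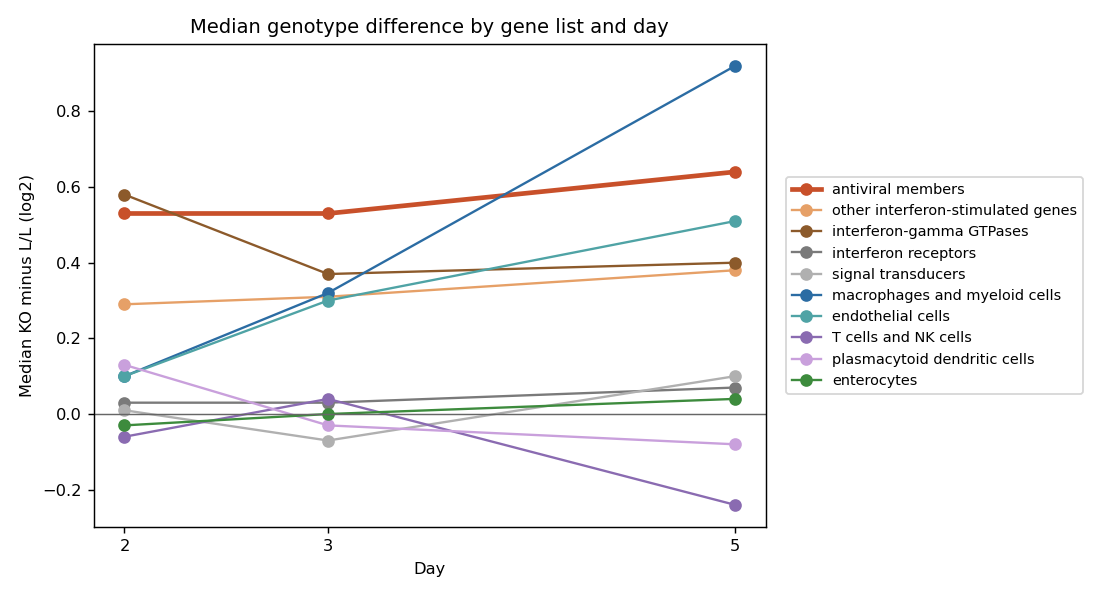
Median log2 difference between KO and L/L (y axis) by day (x axis) for the antiviral genes and for lists of related genes and of cell type markers, each point a median over genes of a list on 1 pair of arrays. The antiviral genes stay between 0.53 and 0.64, whereas macrophage markers go from 0.10 to 0.92 and receptors and transducers stay between -0.07 and 0.10.

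Markers of some other cell types differed with genotype, more so on the later days. Macrophage and myeloid markers had medians of 0.10, 0.32 and 0.92 over 12 of 12 genes. Of these, 7 were higher on all 3 days, against 22.1% of all genes, and Itgam was lower on days 3 and 5 (-0.32 and -0.24). The summed intensity of the 12 was 2826 to 3608 in L/L and 3885 to 5747 in KO. Endothelial markers had medians of 0.10, 0.30 and 0.51, with 10 of 10 higher on all 3 days and sums of 1638 to 1867 and 2066 to 2395. Fibroblast markers had medians of -0.01, 0.18 and 0.51 over 9 of 9 genes, 4 of them higher on all 3 days. Their sums were 11775 to 13483 in L/L and 12653 to 18815 in KO. The antiviral median was 0.53, 0.53 and 0.64 on the same days. The part of these cell types in the antiviral values, on day 2 as on the later days, was not tested.

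Enterocyte markers had medians of -0.03, 0.00 and 0.04 (9 of 10 genes), with sums of 108146 to 112982 in L/L and 110205 to 111897 in KO. Plasmacytoid dendritic cell markers, of the cells known for interferon production, had medians of 0.13, -0.03 and -0.08 (8 of 9 genes; sums of 1428 to 1520 and 1420 to 1502). T and NK cell markers (9 of 13 genes) had medians of -0.06, 0.04 and -0.24 and B and plasma cell markers (7 of 8) -0.01, -0.17 and 0.01. Smooth muscle markers (6 of 6) had medians of 0.01, -0.06 and 0.23, and 2 of 8 neutrophil markers were measured above the threshold. The lowest intensity in the table was 3.82, so no marker was listed at 0.

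Xist, transcribed from the inactive X chromosome of females, differed by -1.16 on day 2, -0.04 on day 3 and -1.13 on day 5, while the Y-linked Eif2s3y had 0.56, -0.25 and 0.45, Kdm5d 0.47, -0.48 and 0.08, and Uty 0.39, -0.28 and 0.34. The pools of each day thus differed in sex-linked transcripts, with the Y-linked genes higher in KO on days 2 and 5 and lower on day 3, and the antiviral median was 0.53, 0.53 and 0.64 on those days. The part of the sex makeup of the pools in these values was not tested.

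Returning to the promoters, the 12 members with a core and an array value had a median mean difference of 0.70 (0.27 to 1.17), and the 13 with a window but no core 0.59 (0.19 to 0.90). Ifit1, Ifit3 and Rsad2, each with a core, lay above the highest member without one; the remaining members with a core lay within the range of those without. Oas3 and Ddx58, with a core, were among the smaller differences, and Ifit2, with no core in its window, among the larger.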

How the data were processed

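The deposited table holds 1 processed intensity per probe set and array on a linear scale (3.82 to 31146). The submitters' processing notes name Partek and RMA, with role, version and settings not given in the sources used here. Log2 was taken with no offset and no further normalization. Of 45101 probe sets, 64 were controls, 34945 had 1 gene in the platform annotation, 932 had several and were left out, and 9160 were not listed and are unnamed here. Symbols of 34741 were updated by gene ID. The brightest probe set stood for each of 18193 genes, and 13042 genes above the 40th percentile (log2 5.28, intensity 38.9) were kept.

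Limma 3.58.1 in R 4.3.3 (lmFit, eBayes, two-sided) tested genotype with day as a factor over all 6 arrays (2 residual degrees of freedom, prior 3.03) and its product with centred day (1, prior 4.76), with Benjamini-Hochberg over all genes kept at 0.05. Both were tested on simulated data. SD is over the 3 daily differences, SE from the fit.

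Members and gene lists were chosen with earlier results of these data known. Every member is named; per-array values are given for the called gene, the 3 highest and lowest means, the first measured member of each role, and others of interest chosen after their values were seen. Of each pathway list at most 6 of the largest differences are named. Alternatives covered probe set choice, filter, offset, centring, cyclic loess, the variance prior, each day left out and the day term.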

Additional observations from a re-analysis of the deposited data

Results flagged for a closer look

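Among the genes named, the genotype difference itself differed between days in 2 macrophage markers, by the slope on day in limma. Lyz2, myeloid lysozyme, had a slope of 0.43 per day on the log2 scale (limma adjusted p = 0.0373), with differences of 0.11, 0.56 and 1.40 on days 2, 3 and 5. Cd68, a lysosomal glycoprotein of macrophages, had a slope of 0.35 per day (limma adjusted p = 0.0454), from -0.10 on day 2 to 0.94 on day 5, where its L/L array (31.7) was below the intensity threshold. Neither call held with no intensity filter or with day 5 set against days 2 and 3, settings in which limma called 0 genes in all. No antiviral gene had a slope that passed (0 of 33 in limma; 4 at an unadjusted p under 0.05, beside 18.4% of all genes).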

How the results depend on the processing

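Over the alternatives to the test of genotype, 418 of 423 values of single members kept their direction and their side of the threshold. For every member but Ifit1, keeping that side meant not passing, so the count says little about how firm a call is. The other 5 values were all of Ifit1, so that 0 members passed in limma instead of 1. Its values were 1.17 (adjusted p = 0.0524, 32 members and 1855 of all genes at an unadjusted p under 0.05) with no intensity filter, 1.14 (adjusted p = 0.0739, 29 and 2262) without day 2, 1.18 (adjusted p = 0.753, 28 and 606) without day 3, 1.19 (adjusted p = 0.0504, 33 and 1109) without day 5, and 1.17 (adjusted p = 0.438, 27 and 956) with no day term. Leaving out a day leaves fewer arrays, and no filter means more genes tested; otherwise the cause was not tested. In the other settings Ifit1 had an adjusted p between 0.0133 and 0.0476. With 32 added before log2, 2 members had a slope that passed in limma, Oas2 (0.20 per day) and Bst2 (0.27 per day), while that setting called 550 genes in all against 160. Over the slope alternatives that count over all genes went from 0, with no filter or with day 5 set against days 2 and 3, to 550. At 2-fold instead of 1.5-fold the counts of members were 5, 2 and 7 on days 2, 3 and 5, by construction. No paired analysis by replicate number was possible because each group has 1 array; the day term pairs the genotypes. Pooling, 1 array per group and the dim interferon probe sets limit what can be seen.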

Other observations

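Interferon-gamma-induced GTPases, which attack vacuoles of intracellular microbes, were also higher in KO, with medians of 0.58, 0.37 and 0.40 on days 2, 3 and 5 over 10 of 16 genes written. Of the 10, 9 were higher on all 3 days, against 22.1% of all genes, and in 9 all KO arrays lay above all L/L arrays, against 7.48%. In limma 0 passed after adjustment; 8 were higher at an unadjusted p under 0.05, against 7.68% of all genes. Iigp1 measured 279, 199 and 207 on the L/L arrays and 448, 376 and 372 on the KO arrays (mean log2 difference 0.82; limma adjusted p = 0.125). By day, Igtp had differences of 1.23, 0.67 and 0.33 and Irgm2 of 0.73, 0.67 and 0.36, largest on day 2 in both.

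Genes of MHC class I antigen processing, which present peptides to CD8+ T cells, stood closer to 0, with medians of 0.08, 0.12 and 0.18 over 12 genes, 0 of which passed in limma (3 at an unadjusted p under 0.05, beside 1603 of all 13042 genes). Their transactivator Nlrc5 had the largest mean difference, 0.57, followed by the peptide transporter subunits Tap1 (0.38) and Tap2 (0.30). Tap1 was 395 on L/L day 2 and 739 on L/L day 3, a shift between control days of 0.90 that exceeded its genotype difference on each day.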
